A study of Mus musculus with 4 samples.

Results

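Genes of the smooth muscle and cardiac contractile apparatus were compared between ID8G cells and GO2 cells. The 10 genes were Acta2, Actg2, Tagln, Cnn1, Cnn2, Myl9, Myh11, Tpm1, Tpm2 and Tnnt2. Their members on the array were the non-control probes whose RefSeq accession carries one of these symbols, which gave 18 of 56605 probes for 10 of the 22911 genes named on the array, and every probe was kept apart from the others of its gene. ID8G cells are ID8 mouse ovarian cancer cells that express GFP. GO2 cells are a line of CD45-negative, GFP-positive cells that was derived from them by sorting from omental tumors after repeated i.p. growth in C57BL/6J mice. RNA of both lines came from culture, for which the paper names a serum-containing medium for ID8 cells and none separately for GO2 cells. There were 2 one-colour arrays of ID8G cells and 2 of GO2 cells. No source used here says whether the arrays of a line were separate cultures, so p-values measure the spread between arrays, which may be technical, and a difference between the lines is a difference between 1 selected line and its parent.

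Smooth muscle contracts when myosin pulls on filaments of muscle actin. Calponin and transgelin bind these filaments, tropomyosin lies along them, and contraction is switched on by phosphorylation of the myosin regulatory light chain, whereas striated muscle switches it on through the troponin complex. Many genes of the smooth muscle apparatus are bound by serum response factor (SRF) at a short element called the CArG box, and fibroblasts and tumor cells can also transcribe some of them without being muscle.

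The promoters of members that the results below turn on are shown first, to show whether the window before the start holds this element. RefSeq start sites of build GRCm38.p6 were given for 7 of the 10 genes, and the 250 bases before the start are printed 5′ to 3′ on the gene's own strand. Capitals mark a CArG box (CC, 6 bases that are A or T, then GG) or a run that differs from one at 1 base. The Acta2 promoter lies at chr19:34255374-34255623 on the minus strand, that of Cnn2 at chr10:79988350-79988599 on the plus strand, that of Myl9 at chr2:156775214-156775463 on the plus strand, and the first of the promoters given for Tnnt2 at chr1:135836084-135836333 on the plus strand.
Acta2: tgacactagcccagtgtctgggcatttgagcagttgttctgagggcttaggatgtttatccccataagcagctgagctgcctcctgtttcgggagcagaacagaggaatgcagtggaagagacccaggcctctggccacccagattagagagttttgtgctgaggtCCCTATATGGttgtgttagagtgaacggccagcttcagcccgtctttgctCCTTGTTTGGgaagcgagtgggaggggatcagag
Cnn2: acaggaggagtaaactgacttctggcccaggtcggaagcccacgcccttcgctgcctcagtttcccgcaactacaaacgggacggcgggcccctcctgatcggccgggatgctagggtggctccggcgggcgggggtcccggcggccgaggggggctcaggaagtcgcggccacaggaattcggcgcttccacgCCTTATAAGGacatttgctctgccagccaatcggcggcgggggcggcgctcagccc
Myl9: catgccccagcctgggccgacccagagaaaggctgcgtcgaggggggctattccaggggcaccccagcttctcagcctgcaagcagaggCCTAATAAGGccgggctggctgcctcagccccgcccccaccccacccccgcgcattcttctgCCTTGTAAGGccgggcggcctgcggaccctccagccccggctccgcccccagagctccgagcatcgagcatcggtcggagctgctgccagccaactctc
Tnnt2: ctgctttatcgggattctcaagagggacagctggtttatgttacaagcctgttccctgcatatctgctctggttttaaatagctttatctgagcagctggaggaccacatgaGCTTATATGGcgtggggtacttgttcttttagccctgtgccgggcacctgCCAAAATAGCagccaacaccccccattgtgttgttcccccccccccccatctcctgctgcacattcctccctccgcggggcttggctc
The Cnn2 promoter held the exact box CCTTATAAGG, 56 bases before the start, and the Myl9 promoter held CCTAATAAGG, 161 bases before it. No exact box was found in the windows of Acta2, Cnn1, Tpm1, Tpm2 or Tnnt2. An exact box was present in 1.63% of all 32851 RefSeq promoters of the table, counted over both strands and over 300 bases that include 50 after the start. Runs with 1 mismatch were found in Acta2 (CCCTATATGG and CCTTGTTTGG, 84 and 34 bases before the start), in Tnnt2, in Tpm1 and once more in Myl9, against 19.9% of all promoters. The MCAT motif CATTCC, known from cardiac troponin T promoters as an element for TEAD factors, was present in Acta2, Tpm1 and Tnnt2 on one strand or the other, against 14.7% of all promoters. These matches are descriptions of letters in a window, and binding was not measured.

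Acta2 (on 2 of its 3 probes), Tagln, Cnn1 and Tpm2 were higher in GO2 cells, and Tnnt2 was lower. Actg2, Cnn2, Myl9 and Tpm1 did not pass the test at 2-fold, and Myh11 had no tested probe. A level here is the log2 intensity of a probe minus the 75th percentile of its array, so 0 is the 75th percentile and a difference of 1 is 2-fold. Levels of different probes are not comparable, since each probe hybridises with its own efficiency. A probe entered the test if both arrays of one line, or of the other, showed it well above background, which held for 14 member probes of 9 genes, and it was called if the adjusted p from limma was below 0.05 and the difference at least 2-fold. Of the 14 probes, 6 were called higher in GO2 cells, which is 42.9% against 4.5% of all 28368 probes tested, and 1 was called lower, which is 7.14% against 3.34%. Of the 6, Acta2 A_52_P210078, Cnn1 A_51_P350817 and Tpm2 A_51_P357013 passed the filter only through GO2 cells, so the filter itself favoured a rise for them. When a probe had to be well above background on all 4 arrays, 3 of 11 member probes were called higher, beside 666 of 26020 probes. Without the 2-fold threshold, 11 member probes had an adjusted p below 0.05 in the higher direction, against 17% of all probes, and 1 in the lower, against 18.9%. The median difference over the 14 probes was 0.95, and over all probes tested it was -0.02. With the filter on all 4 arrays these medians were 0.37 and -0.03. In all 14 the GO2 arrays lay on one side of both ID8G arrays, which was also the case for 73.6% of all tested probes, so this separation is not particular to these genes.

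**Figure D1:**
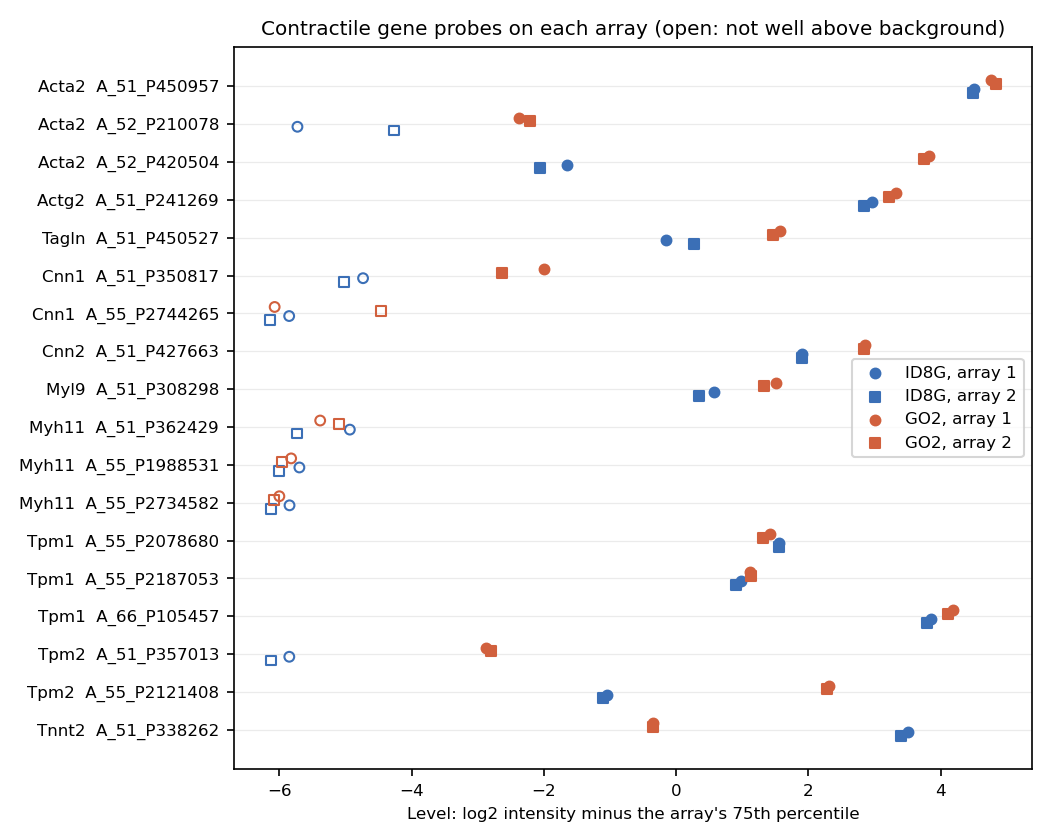
Level of each of the 18 probes (log2 intensity on a scale with the 75th percentile of the array at 0, horizontal axis) on the 2 ID8G arrays (blue) and the 2 GO2 arrays (red); open symbols were not well above background. The GO2 points lie far to the right for Acta2 A_52_P420504 and both Tpm2 probes and far to the left for Tnnt2, and the 3 Myh11 probes are open on every array.

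Acta2, which encodes smooth muscle alpha-actin, gave different answers on its 3 probes, although all are assigned to the same transcript, NM_007392. Probe A_52_P420504 read -1.65 and -2.06 in ID8G cells and 3.82 and 3.75 in GO2 cells. The gap between the lines is many times the spread between arrays of a line. The difference was 5.64 ± 0.15 (SE, 2 arrays per line), or 49.9-fold, with an adjusted p of 0.000286 in limma, and 28 of the 28368 probes tested, itself included, rose at least as much. Probe A_51_P450957 had levels of 4.51 and 4.50 in ID8G cells and of 4.77 and 4.83 in GO2 cells. It was bright on every array, and its difference was 0.30 ± 0.05, with an adjusted p of 0.0212 and a size well short of the 2-fold threshold. Probe A_52_P210078 was not well above background on either ID8G array, at -5.73 and -4.26, and had -2.37 and -2.20 in GO2 cells. Since the ID8G side is only a limit, its rise is given as at least 2.62-fold, with a fitted difference of 2.71 ± 0.52 and an adjusted p of 0.0231. Its call was lost without GO2 replicate 1 (adjusted p 0.0818) and without GO2 replicate 2 (adjusted p 0.0903), and its difference was 1.98 without ID8G replicate 1 and 3.44 without ID8G replicate 2.

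The disagreement within Acta2 was known when these genes were chosen, so the test of it gives its size and no new evidence that it exists. Within each array, each probe was set against the brightest tested probe of the same gene, and limma compared this gap between the lines over all 6047 such pairs on the array. The gap between A_52_P420504 and A_51_P450957 differed between the lines by 5.34 ± 0.16, with an adjusted p of 0.00101, and only 2 of the 6047 pairs, this one included, differed as much. Pairs called at 2-fold made up 1.55% of all pairs. For A_52_P210078 the change of the gap was 2.41 ± 0.50, with an adjusted p of 0.0996, and its ID8G arrays were far apart. It was called without ID8G replicate 1 (1.67, adjusted p 0.0266) and without ID8G replicate 2 (3.15, adjusted p 0.00987), but in fits with 1 array left out, here and below, the lone array of a line is assumed to vary like the pair of the other line, so a call gained there is no support. Actin genes are close to one another in coding sequence, and the probe sequences were not used here, so which transcripts each probe binds was not tested.

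**Figure D2:**
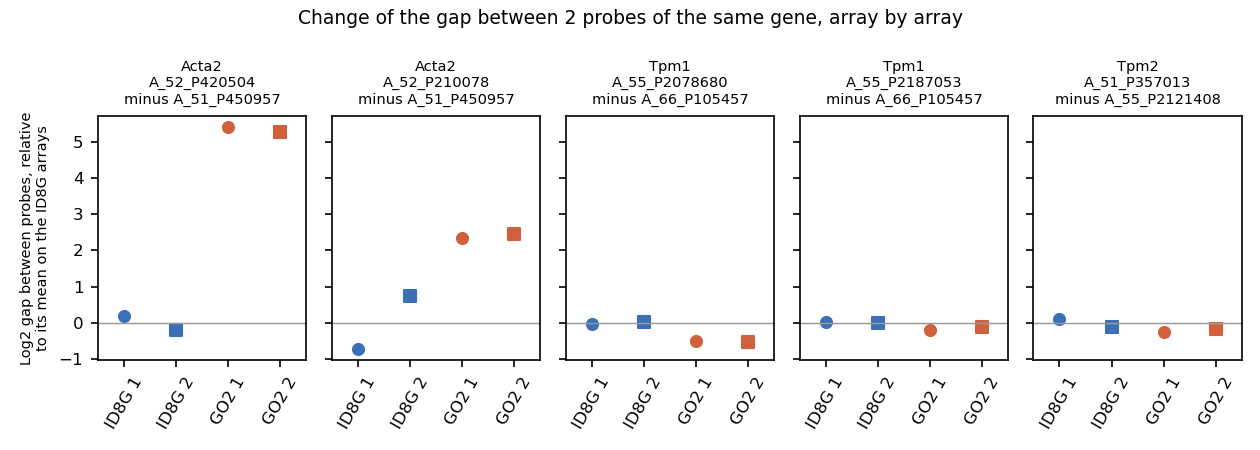
Change of the log2 gap between a probe and the brightest tested probe of its gene on each array, with the mean of the 2 ID8G arrays set to 0 (vertical axis, the same in all panels). The gap of Acta2 A_52_P420504 shifts by 5.34 in the GO2 arrays, that of A_52_P210078 by 2.41 with a wide spread in ID8G cells, and those of Tpm1 by at most 0.52. The Tpm2 gap shifts by -0.22, with the probe A_51_P357013 not well above background in ID8G cells, and by -1.83 with normexp and -2.53 with a floor.

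Actg2, which encodes the smooth muscle gamma-actin of the gut wall and other viscera, was measured by 1 probe. Its levels were 2.97 and 2.85 in ID8G cells and 3.33 and 3.22 in GO2 cells. The lines did not overlap, but the difference of 0.37 ± 0.08, with an adjusted p of 0.0279, was under 2-fold. The striated muscle actins were both called higher. Acta1, the skeletal muscle actin, was not well above background on either ID8G array (-5.28 and -5.29) and had -1.36 and -1.26 in GO2 cells, a rise of at least 5.16-fold with an adjusted p of 0.000182. Actc1, the cardiac muscle actin, had -1.12 and -1.20 in ID8G cells and 0.71 and 0.65 in GO2 cells, a difference of 1.84 ± 0.06 with an adjusted p of 0.000373. The cytoplasmic actins were not called: the Actb probe differed by 0.10 ± 0.05 (adjusted p 0.195), and the Actg1 probes by -0.11 to 0.13.

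Among the proteins that bind actin filaments, Tagln and Cnn1 were called higher. Tagln, which encodes transgelin (SM22), had -0.16 and 0.27 in ID8G cells and 1.57 and 1.47 in GO2 cells. The ID8G arrays differed more between themselves than the GO2 arrays did. The difference was 1.46 ± 0.16, or 2.76-fold, with an adjusted p of 0.00584. Cnn1, the calponin of differentiated smooth muscle, was not well above background in ID8G cells (-4.73 and -5.03) on probe A_51_P350817 and had -1.996 and -2.63 in GO2 cells. It rose by at least 2.58-fold, with a fitted difference of 2.57 ± 0.25 and an adjusted p of 0.00431, and its other probe, A_55_P2744265, was not well above background on any array. Cnn2, the calponin found in many cells that are not muscle, had 1.90 on both arrays of ID8G cells and 2.86 and 2.84 in GO2 cells. Its arrays were almost identical within a line, and its difference of 0.95 ± 0.05, or 1.93-fold, had an adjusted p of 0.000932 but lay just under the 2-fold threshold. With correction of the background by normexp, the differences of the dim probes shrank, to 1.16 for Cnn1, to 1.19 for Acta2 A_52_P210078 and to 1.201 for Tpm2 A_51_P357013 (described below), and all 3 were still called.

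Of the myosin subunits, Myl9 was not called and Myh11 had no tested probe. Myl9, which encodes the regulatory light chain of smooth muscle myosin, had 0.58 and 0.35 in ID8G cells and 1.51 and 1.32 in GO2 cells. Its difference of 0.95 ± 0.11 had an adjusted p of 0.00716 and lay just under 2-fold, and with 1 array of a line remaining it passed 2-fold without ID8G replicate 1 (1.07) and without GO2 replicate 2 (1.05). Myh11, the smooth muscle myosin heavy chain and the most specific marker of mature smooth muscle, was not well above background for any of its 3 probes on any of the 4 arrays. Cnn2 and Myl9, the members with an exact CArG box in the window shown above, both lay just under the threshold. Of the members with a run of 1 mismatch but no box, Acta2 was called higher on 2 of its 3 probes. Tnnt2, also with such runs, was called lower, and Tpm1 was not called. Cnn1 and Tpm2, whose windows held neither a box nor such a run, were called higher. Windows were given for 7 genes only, and nothing about SRF is read from these letters.

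Of the tropomyosins, Tpm2 was called and Tpm1 was not, and the difference between these genes was not tested. Tpm2, which encodes beta-tropomyosin, was called higher by both of its probes. Probe A_55_P2121408 (NM_001277875) had -1.05 and -1.10 in ID8G cells and 2.31 and 2.28 in GO2 cells, a difference of 3.37 ± 0.05, or 10.3-fold, with an adjusted p of 0.000182, the smallest that any probe on the arrays reached. Probe A_51_P357013 (NM_009416) was not well above background in ID8G cells (-5.85 and -6.13) and had -2.88 and -2.80 in GO2 cells, so that its rise is a bound of at least 1.79-fold beside a fitted difference of 3.15 ± 0.11. The change of the gap between these probes was -0.22 ± 0.11 with an adjusted p of 0.345, but it rests on ID8G signal of the second probe near background, and it was -1.83 with normexp and -2.53 with signals raised to a floor, both called as unequal. With the floor the second probe itself differed by 0.84 and was not called. Tpm1, which encodes alpha-tropomyosin, was measured by 3 probes on transcript variants, and none was called. A_66_P105457 (NM_001164248) had 3.85 and 3.79 in ID8G cells and 4.19 and 4.11 in GO2 cells, a difference of 0.33 ± 0.06 with an adjusted p of 0.0215. The other probes differed by 0.17 ± 0.06 and by -0.19 ± 0.06, with adjusted p-values of 0.0836 and 0.0766. The gap between the probe that was lower and A_66_P105457 changed by -0.52 ± 0.07 (adjusted p 0.0374), under the 2-fold threshold for pairs.

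**Figure D3:**
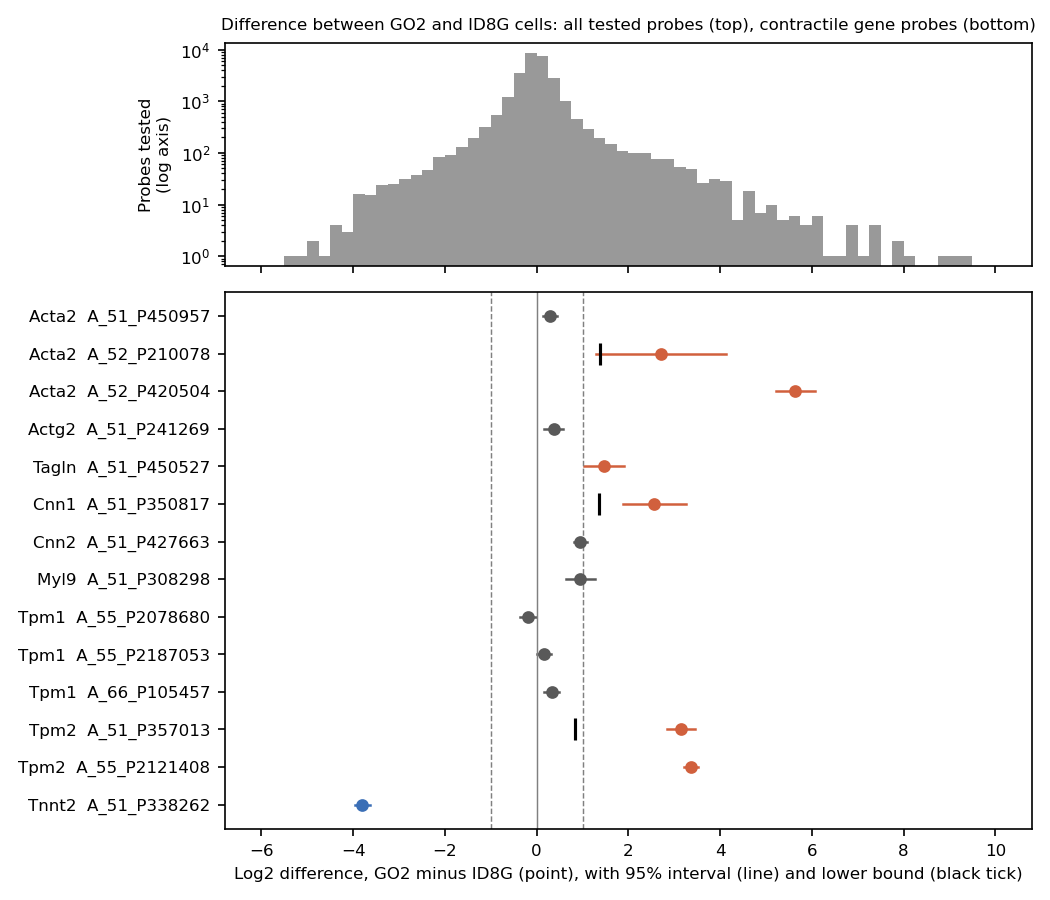
Log2 difference between GO2 and ID8G cells for the 14 tested probes (points, red called higher, blue called lower, grey not called) with 95% intervals from limma, black ticks for the lower bound where ID8G cells were not above background, and dashed lines at 2-fold; the upper histogram counts all 28368 tested probes on a log axis. Acta2 A_52_P420504 at 5.64 and Tnnt2 at -3.80 lie in the tails, and the Cnn2 and Myl9 points end just short of the dashed line.

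Tnnt2 encodes cardiac troponin T, the subunit that ties the troponin complex to tropomyosin, and it was the member that fell. Its probe had 3.51 and 3.41 in ID8G cells and -0.35 and -0.34 in GO2 cells. It was well above background on all 4 arrays, and the spread within a line was small beside the gap. The difference was -3.80 ± 0.06, which is 14.0-fold lower in GO2 cells, with an adjusted p of 0.000182, and 26 of the 28368 probes fell at least as much, itself included. Leaving out each array in turn gave -3.85 to -3.75.

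The other troponin genes that passed the filter were read for comparison, as part of a list of 25 striated sarcomere genes. In this list 5 of 15 tested probes were called lower (33.3%, beside 3.34% of all probes), all of them probes of troponin genes. The 2 called higher (13.3%, beside 4.5%) were the actins described above. Among the 5, both Tnni3 probes passed the filter only through ID8G cells, and Acta1 passed only through GO2 cells. The filter itself thus favoured these directions for them. Tnnt1, the slow skeletal troponin T, had 0.003 and -0.15 in ID8G cells and -2.40 and -2.30 in GO2 cells on probe A_55_P2088385, a difference of -2.28 ± 0.08 with an adjusted p of 0.000419, and its other probe differed by -2.26 ± 0.12. Tnni3, the cardiac troponin I, had -2.23 and -2.25 in ID8G cells on probe A_55_P2502861 and was not well above background in GO2 cells, a fall of at least 2.97-fold with an adjusted p of 0.00124. Its other probe fell by at least 2.03-fold, with a call that was lost without ID8G replicate 1 (adjusted p 0.0823) or without ID8G replicate 2 (adjusted p 0.0801) and a fitted difference of -1.81 without GO2 replicate 1 and -3.27 without GO2 replicate 2. Tnni1, the slow skeletal troponin I, differed by -1.76 ± 0.07 on probe A_52_P657360, which was called, and by -0.87 ± 0.07 on probe A_66_P127420, which was not. Tnnt3, the fast skeletal troponin T, differed by -0.30 ± 0.16 (adjusted p 0.208) on its 1 tested probe. Of the troponin C genes, Tnnc1 had no probe that passed the filter, and Tnnc2 differed by 0.44 ± 0.17 (adjusted p 0.114). Of the remaining genes, Myl4, the atrial light chain, differed by 0.72 ± 0.08 and 0.51 ± 0.06 (adjusted p 0.00555 and 0.00702), and Myl1, Tcap and Myh7 by 0.64, -0.54 and -0.47, all under 2-fold and the last without GO2 replicate 2, whose spot was an outlier. The list's other 13 genes, among them Myh6, Actn2, Ttn and Ryr2, had no probe that passed the filter.

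Troponin genes lie in pairs in the genome, so the RefSeq order of protein-coding genes was read around them. This was done after the values had been seen, and all probes of these genes belong to the same 4 arrays. On chromosome 1, Tnni1, Lad1, Tnnt2 and Pkp1 follow each other, and each had at least 1 probe called lower. Lad1, which encodes a basement membrane filament protein, fell on both of its probes; the brighter one had -0.57 and -0.46 in ID8G cells and -3.05 and -2.24 in GO2 cells, a difference of -2.13 ± 0.29 with an adjusted p of 0.01. Pkp1, which encodes a desmosomal plakophilin, had -0.42 and -0.48 in ID8G cells and -3.55 and -3.14 in GO2 cells, a difference of -2.89 ± 0.15 with an adjusted p of 0.000940. With no filter on dim probes both Lad1 calls were lost (adjusted p 0.0561 and 0.0605). Genes on the outer sides of this run were not called: Phlda3 by -0.15 ± 0.09 (adjusted p 0.231), Csrp1 by 0.22 ± 0.06 (adjusted p 0.058), and Tmem9 by -0.32 and -0.41 (adjusted p 0.0135 and 0.0257), lower but under 2-fold. Igfn1, which lies between Pkp1 and Tmem9, was not well above background on any array. On chromosome 7, Tnnt1 and Tnni3 are direct neighbours, both fell, and Ppp1r12c on one side and Dnaaf3 on the other differed by 0.10 and -0.45 without being called. For the 3 nearest protein-coding genes on each side of every member, 48 neighbours had a tested probe. A neighbour was counted as called if any of its probes was, whereas the shares over the array count single probes, so these are unlike measures. By this count 3 neighbours were called higher (6.25%, beside 4.5% of all probes) and 3 lower (6.25%, beside 3.34%). The 3 lower ones were Tnni1, on its dimmer probe only, Lad1 and Pkp1.

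**Figure D4:**
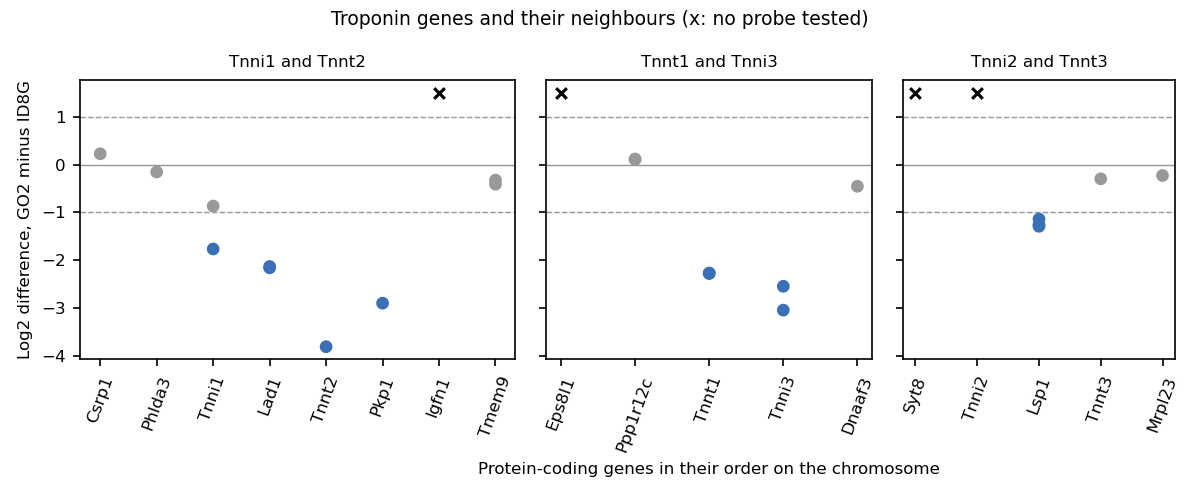
Log2 difference between GO2 and ID8G cells for every tested probe of the troponin genes and of the protein-coding genes around them, in chromosome order (blue, called lower; grey, not called; crosses at the top, no probe tested; dashed lines, 2-fold). Tnni1, Lad1, Tnnt2 and Pkp1 form a run with differences down to -3.80, and Tnnt1 and Tnni3 form another, between neighbours that were not called and lie between -0.45 and 0.22. In the panel of Tnni2 and Tnnt3, the gene between them, Lsp1, was called lower on each of its probes (-1.29 to -1.14), and Tnnt3 was not called.

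The rest of the smooth muscle programme was read from a list of 18 further contractile genes. Of 15 tested probes 3 were called higher (20%, beside 4.5% of all probes) and 0 lower (beside 3.34%). Among the 3 were both probes of Nexn, which encodes the actin-filament protein nexilin. In the lower direction 0 probes had an unadjusted p from limma below 0.05, with no share over all probes to set beside this. Nexn probe A_52_P367520 had -0.91 and -0.81 in ID8G cells and 0.59 and 0.62 in GO2 cells, a difference of 1.47 ± 0.06. Cald1, which encodes caldesmon, Csrp1 and Hspb1, named for bright probes, were not called, with differences of 0.13 ± 0.06 for the brighter Cald1 probe, 0.22 ± 0.06 for Csrp1 and 0.42 ± 0.06 for Hspb1. Des, Lmod1, Synpo2, Synm, Casq2, Mustn1 and Pgm5, several of which mark mature smooth muscle together with Myh11, had no tested probe. The nonmuscle counterparts of the members gave no call: of 22 tested probes of 11 genes 0 were called in either direction, beside 4.5% of all probes higher and 3.34% lower. At an adjusted p from limma below 0.05 at any fold, 4 of the 22 were higher, beside 17% of all probes, and 3 lower, beside 18.9%. At an unadjusted p from limma below 0.05 the counts were 5 and 3, with no share over all probes to set beside them. Tagln2, the nonmuscle transgelin, had the largest differences of these, 0.63 ± 0.06 and 0.76 ± 0.06.

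Among the genes that set myosin phosphorylation, Mylk was the one with called probes. Mylk encodes myosin light chain kinase, which phosphorylates the light chain that Myl9 encodes, and all 3 of its probes were called lower. Probe A_55_P2728282 had 0.87 and 0.83 in ID8G cells and -1.15 and -1.11 in GO2 cells, a difference of -1.98 ± 0.05 with an adjusted p of 0.000283. The other probes differed by -1.91 ± 0.06 and -1.76 ± 0.06. The list holds 20 tested probes of 11 genes, so the 3 are 15% of it, beside 3.34% of all probes. At an adjusted p from limma below 0.05 at any fold, 6 of the 20 were lower, beside 18.9% of all probes, and 0 higher, beside 17%. Ppp1r14b and Rhoa, named for bright probes, were not called, with differences of 0.12 ± 0.05 and 0.02 ± 0.05, and the Rock1 and Rock2 probes lay between -0.36 and -0.09.

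Most transcription factors of the muscle programme were not called. Srf differed by 0.15 ± 0.05 (adjusted p 0.0894), its cofactor Mrtfa by 0.27 ± 0.05 (adjusted p 0.0229), and the brighter probe of Mrtfb by -0.32 ± 0.06 (adjusted p 0.0229), all under 2-fold. The other tested Mrtfb probe was not well above background in GO2 cells. It fell by at least 1.53-fold, with a fitted difference of -0.93 ± 0.06 (adjusted p 0.00159 in limma), just under the threshold. Myocd, which encodes the muscle-restricted SRF cofactor myocardin, and the cardiac factors Nkx2-5, Tbx5 and Tbx20 had no tested probe. Of 18 tested probes 1 was called higher (5.56%, near the 4.5% of all probes) and 2 lower (11.1%, beside 3.34%). Of these, Foxf1 passed the filter only through GO2 cells and Mef2c only through ID8G cells, so the filter itself favoured their directions. Foxf1, which encodes a forkhead factor of visceral mesenchyme, was not well above background in ID8G cells and rose by at least 1.32-fold, and with signals raised to a floor it differed by 0.40 and was not called. Mef2c fell by at least 2.05-fold with a call that was lost without ID8G replicate 1 (adjusted p 0.106), without ID8G replicate 2 (adjusted p 0.139) and with the replicate block (adjusted p 0.0861), and with a fitted difference of -3.37 without GO2 replicate 1 and -1.58 without GO2 replicate 2. Of the Isl1 probes, 1 was called lower at -1.21 (with normexp -0.51, not called) while the other differed by 0.31. Gata6 and Tead1, named for bright probes, were not called, and the Gata6 probe differed by 0.30 ± 0.06. In the list of broadly used cytoskeletal SRF targets none of 15 tested probes was called, beside 4.5% of all probes higher and 3.34% lower. At an adjusted p from limma below 0.05 at any fold, 7 of the 15 were higher, beside 17% of all probes, and 4 lower, beside 18.9%. The counts were also 7 and 4 at an unadjusted p from limma below 0.05, with no share over all probes to set beside them. Flna, Tln1 and Zyx, named for bright probes, differed by 0.22, 0.25 and 0.81 on their brighter probes.

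**Figure D5:**
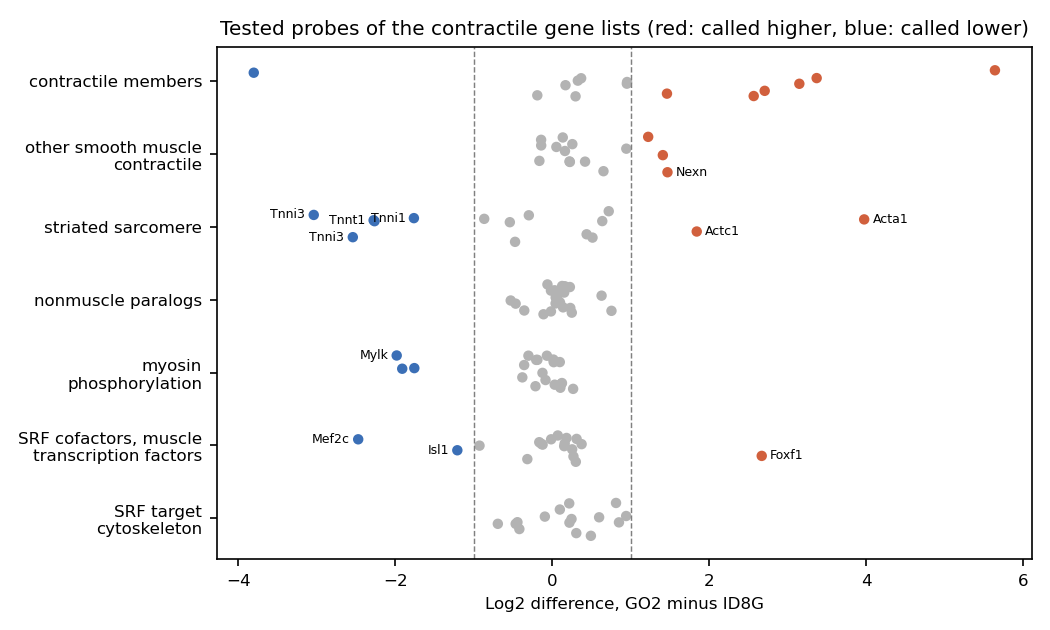
Log2 difference between GO2 and ID8G cells for each tested probe of the members and of 6 further lists (red, called higher; blue, called lower; grey, not called; dashed lines, 2-fold; vertical scatter within a list has no meaning). Called probes stand at both ends of the striated sarcomere list, with actins at 3.97 and 1.84 and troponins at -3.04 to -1.76, and the nonmuscle paralogs all lie within 2-fold.

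Markers of other cells that a sorted tumor line could hold were measured on the same arrays. In RNA of a whole culture, fewer cells of a type and less RNA per cell cannot be told apart. Of the fibroblast list, Col3a1 and Pdgfra were called higher, by 4.201 ± 0.089 and 3.70 ± 0.08, Dcn differed by -0.63 ± 0.05, and Dpt, Fap, Lum, Pi16 and Thy1 had no probe well above background on any array. The summed linear signal of all probes of this list, in multiples of the 75th percentile, was 68.8 and 66.0 in ID8G cells and 66.8 and 64.4 in GO2 cells. Since probes differ in efficiency, such a sum follows its brightest probe and gives no share of cells: here Dcn made up 63.6% to 98%. Of the pericyte list, Pdgfrb was called higher (at least 2.42-fold), Kcnj8 lower (at least 2.97-fold), Mcam and Notch3 differed by 0.25 ± 0.06 and -0.21 ± 0.07, and Rgs5 and Abcc9 were not well above background on any array. The Kcnj8 call was lost with no filter on dim probes (adjusted p 0.0527) and with a floor (adjusted p 0.051), and its fitted difference of -3.40 was -4.03 without ID8G replicate 1 and -2.78 without ID8G replicate 2. Summed signals of this list, of which Mcam made up 95% to 96.3%, were 31.4 and 32.9 in ID8G cells and 37.2 and 38.1 in GO2 cells. The 1 tested endothelial probe and the 4 tested macrophage probes were not called in limma, beside 4.5% of all probes higher and 3.34% lower. At an unadjusted p from limma below 0.05, 1 macrophage probe was higher, with no share over all probes to set beside it. Of the endothelial list Pecam1 was above background on all 4 arrays, between -3.34 and -3.14, and differed by 0.08 ± 0.08, while Cdh5, Kdr, Tek and Emcn were not well above background on any array. Ptprc, which encodes CD45, the surface protein used to sort against blood cells, and Adgre1 and Lyz2 were not well above background on any array. Itgam, Csf1r and Cd68 each had a probe above background on all 4 arrays in both lines, with differences of -0.13 to 0.22 that were not called, and the summed signal of the macrophage list, mostly Itgam (81.7% to 86.6%), was 21.4 and 24.2 in ID8G cells and 21.5 and 21.7 in GO2 cells. Fabp4 of the adipocyte list fell on both probes (at least 6.28-fold on the brighter, the other not called with a floor), while Adipoq, Plin1 and Cidec had no tested probe. Lep, of the same list, was well above background on all 4 arrays and differed by -0.04 ± 0.05 (adjusted p 0.62 in limma). Mesothelial and epithelial markers remained measurable in both lines, although Epcam and Krt7 were not well above background on any array: Wt1 differed by -0.10 ± 0.10, Msln by -0.82 ± 0.06, Krt8 by -0.55 ± 0.05 and Krt18 by -0.81 ± 0.05, none called, whereas Krt19 fell by 1.65 and Upk3b rose by 1.08 on the log2 scale (with spike-in scaling 0.87, not called). The summed signal of the mesothelial list was 271.2 and 278.9 in ID8G cells and 142.4 and 145.6 in GO2 cells, of which Krt19 made up 37% to 62.5%, and that of the epithelial list, mostly Krt18 (66.8% to 71.1%), 391.4 and 377.4 against 231.1 and 231.6. The part of any of these cells in the differences of the contractile genes was not tested.

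Genes outside these lists whose pattern over the 4 arrays was most like that of a member were found by the root mean square distance of levels centred on their mean, over 19108 probes. They are descriptions of 4 arrays and no evidence of a link. For Acta2 A_52_P420504 the closest were Arhgef40, with a distance of 0.081, Cthrc1, with 0.129, and Man1c1, with 0.131, whose differences were 5.49, 5.53 and 5.40. For Tnnt2 the closest were Ripply1, with a distance of 0.037, Fam78a, with 0.038, and Krt23, with 0.050, whose differences were -3.79, -3.85 and -3.73. The levels of Arhgef40 and Man1c1 in ID8G cells and of Fam78a in GO2 cells lay below the lowest level called well above background on those arrays, so their differences depend on signal near background.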

How the data were processed

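Total RNA of ID8G and GO2 cells was labelled with Cy3 and hybridised to Agilent mouse arrays (4 arrays, 1 slide, 1 scan). The deposited intensities are processed signals, corrected for background by the authors' Feature Extraction 11.5.1.1 software, per the file headers. Outlier spots were left out, spots of a probe were averaged, and the log2 signal was centred on each array's 75th percentile (627.2 to 675.1 intensity units). Between 27502 and 28841 probes were well above background and 0 spots saturated. The deposited table of log2 values, an alternative here, matched these levels after centring each probe on its median (within 0.00545), with column medians of 0.10, -0.05, 0.04 and -0.05. Probes were named through RefSeq accessions (GRCm38.p6), which named 58.3%.

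Tests used limma 3.58.1 in R 4.3.3 with Benjamini-Hochberg adjustment over all probes tested and were checked on simulated data. With 2 arrays per line an exact permutation test cannot go below 0.333, and the number of arrays limits the precision. Where a line was not well above background on its arrays, "at least" folds set the bright mean against the higher of the dim probe's signal and the lowest well-above-background signal. The members and lists were chosen with earlier results of these data known. All members were named, and from each further list at most 3 genes with the largest called difference and 3 with the highest mean probe level, a ranking of signal and not of transcript amount; neighbouring genes, and other genes named for low signal or for their role, were chosen after values were seen. Alternatives covered background correction, scaling, filters, thresholds, variance models, the methods' t-test and each array left out. Probe and protein sequences were not used here, and some genes that this rule would name are not reported here.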

Additional observations from a re-analysis of the deposited data

How the results depend on the processing

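The counts of called contractile probes rested on limma's sharing of the spread across probes. With the methods' t-test after Benjamini-Hochberg adjustment, 0 member probes were called higher, 0 lower and 0 pairs of probes differed, as against 0 higher and 3 lower over all 28368 probes, while its unadjusted p gave 4 higher and 1 lower among the members and 1001 and 728 over all. The count of 6 higher stood beside 1277 of all 28368 probes. When a probe had to be well above background on all 4 arrays, it became 3 of 11 member probes, beside 666 of 26020. At 1.5-fold it was 8, beside 2184 of 28368. At an adjusted p from limma below 0.05 at any fold, a threshold added after seeing the data, it was 11, beside 4835 of 28368. With all 4 arrays kept, the 1 lower call stayed under every alternative other than the adjusted t-test. The median difference of 0.95 was 0.75 with spike-in scaling, 0.55 without a filter on dim probes and 0.37 with the filter on all 4 arrays, and 0.90 to 1.01 with 1 array left out. Spike-in scaling moved the median of all probes to -0.23, and under it Tpm1 A_55_P2187053 turned to -0.035. Pairs of member probes called as unequal numbered 2 with normexp and 3 with a floor, and 1 to 2 with 1 array left out. In the fit with a replicate block, 6 member probes were called higher and 1 lower, as without it. Deviations of arrays with the same number correlated at 0.0273 over the tested probes. The labels do not say whether such arrays share a culture or batch, and this correlation cannot settle it. Slide as a block was not run, since all arrays were on 1 slide. Rises of Cnn1, Acta2 A_52_P210078 and Tpm2 A_51_P357013 are limited by ID8G signal near background.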

Other observations

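A further troponin pair, Tnni2 and Tnnt3 on chromosome 7, was looked at after the values were seen. Tnni2, the fast skeletal troponin I, was well above background on 1 array of ID8G cells and on no array of GO2 cells and was not tested. Lsp1, which lies between them and encodes an actin-binding protein of leukocytes, was called lower on all 3 of its probes, by 1.26 on the log2 scale on the brightest, with levels of 2.80 and 2.69 in ID8G cells and of 1.48 and 1.49 in GO2 cells and an adjusted p of 0.000792 in limma. Mrpl23, the next gene after Tnnt3, differed by -0.23 ± 0.07 and was not called.

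Of the 48 neighbours of members with a tested probe, 3 were called higher on at least 1 probe (6.25% of genes, beside 4.5% of single probes). No pattern is read from them. Ch25h, which encodes cholesterol 25-hydroxylase and is the second gene beyond Acta2, differed by 4.36, with Fas, the gene between them, at 0.20. Acp5, the second gene beyond Cnn1, differed by 2.26, and Bace1, the third gene from Tagln, by 1.06, and the genes between each of these and its member were not called.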
